A study of Homo sapiens with 6 samples.

Results

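Insulin and IGF receptor pathway genes were examined in SW480 cells depleted of RBM39, an RNA-binding protein that acts in splicing. The set was a list of 10 gene symbols out of 56303 in the deposited count table. It holds the receptors IGF1R, INSR and IGF2R, the receptor substrates IRS1 and IRS2, the secreted binding proteins IGFBP2, IGFBP3, IGFBP4 and IGFBP6, and the mRNA-binding protein IGF2BP2. SW480 is an epithelial line from a human colon adenocarcinoma, grown here in serum-containing medium. Cells carried a lentiviral nonsilencing hairpin (shCtrl, labelled wild type) or a hairpin against RBM39 (shRBM39, labelled RBM39 knockdown), and were selected with puromycin as stable clonal lines. How many lines or clones each group comes from is not stated, so effects of the hairpin and of the selected cells cannot be told apart. The mRNA was sequenced from 3 replicate libraries per group, with 18042924 to 20428901 counts per library.

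Insulin and the insulin-like growth factors bind receptor tyrosine kinases at the cell surface, INSR and IGF1R, which phosphorylate the docking proteins IRS1 and IRS2 and so activate the PI3K, AKT and mTOR pathway. IGF2R has no kinase domain: it takes up IGF2 for breakdown in lysosomes and sorts lysosomal enzymes. IGF-binding proteins hold IGFs outside the cell and set how much reaches the receptors, and IGF2BP proteins bind IGF2 mRNA among many other transcripts.

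INSR is the member with a well-known alternative exon. Exon 11 of 22, at chr19:7150497-7150532 on the minus strand of GRCh38, is coding and 36 bases long. Its inclusion gives the INSR-B receptor and its skipping gives INSR-A, which also binds IGF2. The exon is shown in capitals with 15 bases of intron on each side in lower case, 5′ to 3′, because it is the splicing event the gene is known for.
INSR exon 11: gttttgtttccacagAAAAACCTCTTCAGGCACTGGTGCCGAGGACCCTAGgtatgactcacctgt
The exon was part of the gene model used for counting, so reads of both isoforms enter the INSR count.

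Promoter sequences were taken from RefSeq (GRCh38.p14) for all 10 genes. The 250 bases upstream of the RefSeq start are shown for the members with the largest changes in mRNA: INSR and IRS2, which were lower in shRBM39, and IGFBP6, which was higher. For IGFBP6 this start lies inside the gene span of the count table, which begins at 53097436. Most of the IGFBP6 stretch therefore falls within that span. Capitals mark GGGCGG or its complement CCGCCC, the GC box bound by Sp1-type factors, and overlapping boxes run together.
INSR promoter, chr19:7294415-7294664, minus strand: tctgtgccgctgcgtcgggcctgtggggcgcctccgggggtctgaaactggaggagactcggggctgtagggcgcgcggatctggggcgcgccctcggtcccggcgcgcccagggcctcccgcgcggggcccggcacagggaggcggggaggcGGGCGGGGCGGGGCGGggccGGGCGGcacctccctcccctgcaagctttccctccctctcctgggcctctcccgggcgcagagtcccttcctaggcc
IRS2 promoter, chr13:109786584-109786833, minus strand: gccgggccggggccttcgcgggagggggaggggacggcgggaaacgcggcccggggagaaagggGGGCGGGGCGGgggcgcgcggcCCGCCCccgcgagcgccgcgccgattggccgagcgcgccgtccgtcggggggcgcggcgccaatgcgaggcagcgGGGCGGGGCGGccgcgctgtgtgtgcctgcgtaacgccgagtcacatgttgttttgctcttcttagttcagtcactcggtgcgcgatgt
IGFBP6 promoter, chr12:53097417-53097666, plus strand: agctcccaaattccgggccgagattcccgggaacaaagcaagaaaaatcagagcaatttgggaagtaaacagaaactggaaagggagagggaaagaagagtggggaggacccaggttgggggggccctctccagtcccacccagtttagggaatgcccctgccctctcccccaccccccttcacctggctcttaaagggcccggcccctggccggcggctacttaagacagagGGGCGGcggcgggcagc
Over the 300-base window that ends 50 bases after the start, the INSR promoter had 78.3% GC and 4 GC boxes, and the IRS2 promoter had 75.7% GC and 5 GC boxes. The IGFBP6 promoter had 61.7% GC and 1 GC box. The median over all promoters was 58.7% GC, and 44.95% of 35116 promoters held a GC box on either strand. The TATAAA motif occurred in 11.53% of all promoters and in none of these 3. IGFBP6 held the forkhead motif TGTTTAC, read on either strand, which occurred in 3.42% of promoters. A match describes the letters and not binding. Among the members not shown, IGFBP4, which was higher in shRBM39, had 74.0% GC and 2 GC boxes. IGF2R, which was lower, had 78.7% GC and 6 GC boxes. IGF1R and IRS1, with smaller falls, had 79.7% and 79.3% GC. A link between promoter GC and direction was not tested.

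The targeted gene was lower in every knockdown library. RBM39 was at 441, 448 and 435 CPM (the count relative to the library's TMM-scaled total) in shCtrl and at 266, 275 and 292 CPM in shRBM39, and its mean fell by 37.0% (log2 fold change -0.67 ± 0.04 SE, edgeR adjusted p = 1.24e-16). The epithelial label was checked with 10 markers: EPCAM was at 591 CPM in shCtrl and 598 CPM in shRBM39, KRT8 was at 6924 and 9309 CPM, and CDX1 had 0 to 2 counts. Of 9 epithelial markers tested, 2 were called higher and 4 lower, among them CDX2 (log2 fold change -2.13 ± 0.09 SE, edgeR adjusted p = 2.44e-20). VIL1, CDH1 and CDH17 were also called lower, at log2 fold changes of -0.09, -0.39 and -1.34. Their summed level over the epithelial list ranged from 2680 to 2832 RPKM in shCtrl and from 2984 to 3084 RPKM in shRBM39 (CPM per kilobase of exon, without TMM). Most of it was KRT8, at 1049 and 1294 RPKM, and KRT18, at 952 and 1033 RPKM, the 2 called higher. The other tested epithelial markers all had a lower mean RPKM in shRBM39, where no TMM factor is applied. With TMM, EPCAM and KRT19 were at log2 fold changes of 0.02 and 0.07 and GPA33 at -0.37, none of them called. Of 9 stromal, immune and endothelial markers, 5 were tested and 3 were called higher. The collagen gene COL1A1 rose from 5.58 to 9.80 CPM (log2 fold change 0.81 ± 0.11 SE, edgeR adjusted p = 8.04e-08), and the endothelial genes PECAM1 and VWF rose from 3.35 to 5.82 CPM and from 0.569 to 1.499 CPM (log2 fold changes 0.79 ± 0.14 and 1.39 ± 0.28 SE, edgeR adjusted p = 7.49e-06 and 7.64e-05). The summed level of the list ranged from 8.69 to 8.92 RPKM in shCtrl and from 8.79 to 9.84 RPKM in shRBM39, most of it CD68, which was at 7.47 and 7.28 RPKM and was not called. PTPRC, which defines leukocytes, had 0 counts in all libraries, COL1A2 and COL3A1 had 0 to 3, and DCN had 0 to 1. The part of these marker shifts in the results was not tested.

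All 10 members passed the filter on low counts, and 9 were called between the groups at an adjusted p under 0.05: 2 were higher and 7 lower in shRBM39. The same fit called 59.1% of 18243 tested genes, 29.2% as higher and 29.9% as lower. The groups did not overlap for 9 of the 10 members and for 63.3% of all tested genes. The median log2 fold change was -0.19 over the members and -0.01 over all tested genes. Among the log2 fold changes of all tested genes, IRS2 lay at percentile 3.25 and INSR at 9.12, and IGFBP6 lay at percentile 97.8. In bulk RNA, a lower share of cells expressing a gene and less mRNA per cell cannot be told apart.

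**Figure D1:**
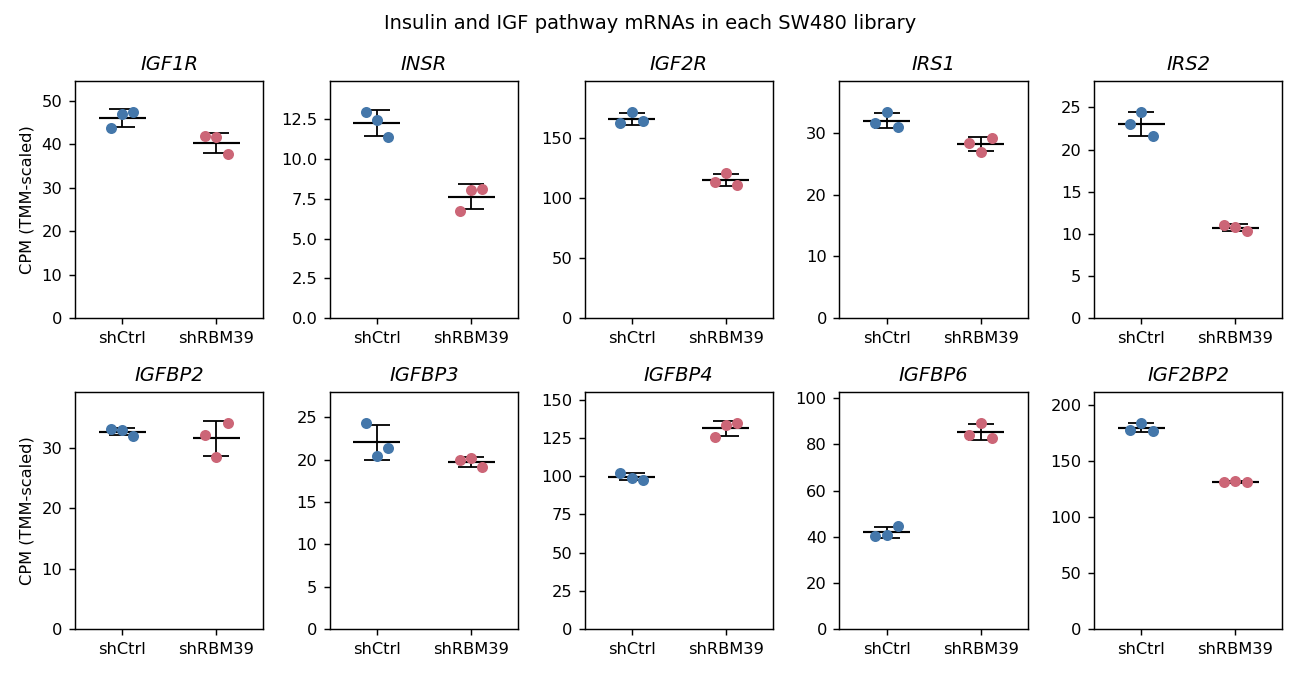
Each panel plots the CPM of 1 gene (TMM-scaled, axis from 0) in the 3 shCtrl and 3 shRBM39 libraries as points, with the mean as a line and the SD as bars. IRS2, INSR, IGF2R and IGF2BP2 sit lower in all shRBM39 libraries, IGFBP6 and IGFBP4 sit higher, and the IGFBP2 points overlap.

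Among the receptors, INSR fell most. INSR (chr19:7112255-7294034, minus strand), the insulin receptor, was at 12.9, 12.4 and 11.4 CPM in shCtrl and at 6.74, 8.07 and 8.11 CPM in shRBM39. All shRBM39 libraries lay below all shCtrl libraries. The mean fell by 37.8%, from 12.2 ± 0.807 to 7.64 ± 0.781 CPM (SD, n = 3), with a log2 fold change of -0.68 ± 0.09 SE in the edgeR fit across all genes (adjusted p = 1.45e-07). These values rest on 132 to 264 counts per library, the fewest of the 10 genes.

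IGF2R (chr6:159969099-160113507, plus strand), which clears IGF2, was the most abundant receptor mRNA. It was at 162, 172 and 164 CPM in shCtrl and at 113, 120 and 111 CPM in shRBM39, with no overlap between the groups. The mean fell by 30.8% (log2 fold change -0.53 ± 0.04 SE, edgeR adjusted p = 1.52e-13).

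IGF1R (chr15:98648971-98964530, plus strand), the receptor for IGF1 and IGF2, was at 43.8, 46.9 and 47.5 CPM in shCtrl and at 41.9, 41.6 and 37.7 CPM in shRBM39. The groups came close without overlapping, and the fall by 12.3% was the smallest of the receptors (log2 fold change -0.19 ± 0.05 SE, edgeR adjusted p = 0.002). Each library was also corrected for how its counts depend on the GC content and the length of genes. With that correction the log2 fold change of IGF1R was -0.04 and it was no longer called (edgeR adjusted p = 0.447). Long transcripts were slightly lower in shRBM39 as a whole: the median log2 fold change was -0.11 among the genes with at least 9390 bases of exon, which are 1825 of the 18243 tested, against -0.01 over all of them. IGF1R with 13509 bases of exon, IGF2R with 14911, INSR with 10451 and IRS1 with 9953 all belong to these. With the same correction INSR was at -0.57 and IGF2R at -0.38, and both were still called.

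The substrates differed in the size of their change. IRS2 (chr13:109752698-109786568, minus strand), a docking protein that carries much of insulin signalling in liver, was at 23.1, 24.4 and 21.6 CPM in shCtrl and at 11.1, 10.8 and 10.3 CPM in shRBM39. The groups were far apart. The mean fell by 53.4%, the largest fall of the set, from 23.0 ± 1.42 to 10.7 ± 0.38 CPM (SD, n = 3), with a log2 fold change of -1.10 ± 0.08 SE in the edgeR fit (adjusted p = 1.05e-14). An antisense transcript overlaps 115 bases of IRS2 exon, 1.41% of its length, and had 4 to 13 counts per library.

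IRS1 (chr2:226731317-226799759, minus strand), the paralogous docking protein, was at 31.5, 33.3 and 31.0 CPM in shCtrl and at 28.4, 26.9 and 29.1 CPM in shRBM39. The groups did not overlap, and the mean fell by 11.9% (log2 fold change -0.18 ± 0.06 SE, edgeR adjusted p = 0.00595). Under the GC and length correction IRS1 was at -0.06 and was not called (edgeR adjusted p = 0.327).

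A ratio of 2 genes within a library does not depend on how libraries are scaled. The IRS2 to IRS1 ratio of RPKM was 0.896, 0.896 and 0.854 in shCtrl and 0.477, 0.491 and 0.434 in shRBM39. It differed by -0.92 on the log2 scale with no overlap, and the exact two-sided permutation test gave p = 0.1, the smallest that 3 against 3 libraries allow. The INSR to IGF1R ratio was 0.382, 0.343 and 0.309 in shCtrl and 0.208, 0.251 and 0.278 in shRBM39, a difference of -0.5 on the log2 scale, also at the smallest exact permutation p of 0.1.

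The secreted binding proteins split in direction. IGFBP6 (chr12:53097436-53102345, plus strand), a binding protein with a preference for IGF2, was at 40.5, 40.6 and 44.5 CPM in shCtrl and at 84.2, 89.4 and 82.6 CPM in shRBM39. Every shRBM39 library was above every shCtrl library, and the mean rose by 104% (log2 fold change 1.03 ± 0.05 SE, edgeR adjusted p = 3.97e-19). IGFBP4 (chr17:40443461-40457731, plus strand), which mostly restrains IGF action and is cleaved by the protease PAPPA, was at 102, 98.9 and 97.7 CPM in shCtrl and at 126, 133 and 135 CPM in shRBM39. Its rise by 31.8% had no overlap between groups (log2 fold change 0.40 ± 0.04 SE, edgeR adjusted p = 2.08e-10).

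IGFBP3 (chr7:45912245-45921874, minus strand), the main IGF carrier in blood, was at 24.4, 20.4 and 21.4 CPM in shCtrl and at 19.96, 20.2 and 19.1 CPM in shRBM39. The groups almost met, and the log2 fold change of -0.16 ± 0.07 SE was just past the threshold (edgeR adjusted p = 0.0486). Without shCtrl replicate 1, its highest library, IGFBP3 was at -0.08 and was not called (edgeR adjusted p = 0.378). Without shRBM39 replicate 1, 2 or 3 it was at -0.16, -0.17 and -0.13 and was not called either (edgeR adjusted p = 0.0802, 0.0758 and 0.145), and under DESeq2 the adjusted p was 0.168.

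IGFBP2 (chr2:216632828-216664436, plus strand), another secreted IGF carrier, was at 33.2, 33.0 and 32.0 CPM in shCtrl and at 32.2, 28.5 and 34.2 CPM in shRBM39. The groups overlapped and IGFBP2 was not called (log2 fold change -0.05 ± 0.06 SE, edgeR adjusted p = 0.514). Its estimate turned to 0.02 without shRBM39 replicate 2, its lowest library.

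IGF2BP2 (chr3:185643739-185825056, minus strand), which binds and stabilizes mRNAs, was at 178, 184 and 177 CPM in shCtrl and at 131, 132 and 131 CPM in shRBM39. The knockdown libraries were nearly equal, and all lay below the controls. The mean fell by 26.9% (log2 fold change -0.45 ± 0.04 SE, edgeR adjusted p = 1.43e-12).

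The calls rest on a scaling that centres most genes near no change. With library totals alone the median log2 fold change of all genes was -0.14, and 33.9% of called genes were higher against 49.4% with TMM. All 10 members were then called, 2 higher and 8 lower, with IGFBP2 added at -0.17 (edgeR adjusted p = 0.0141). With the GC and length correction 6 members were called, 2 higher and 4 lower: IGFBP3 lost its call along with IGF1R and IRS1 (edgeR adjusted p = 0.059 for IGFBP3). INSR, IGF2R, IRS2, IGFBP4, IGFBP6 and IGF2BP2 were called in the same direction under TMM, library totals and the correction.

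**Figure D2:**
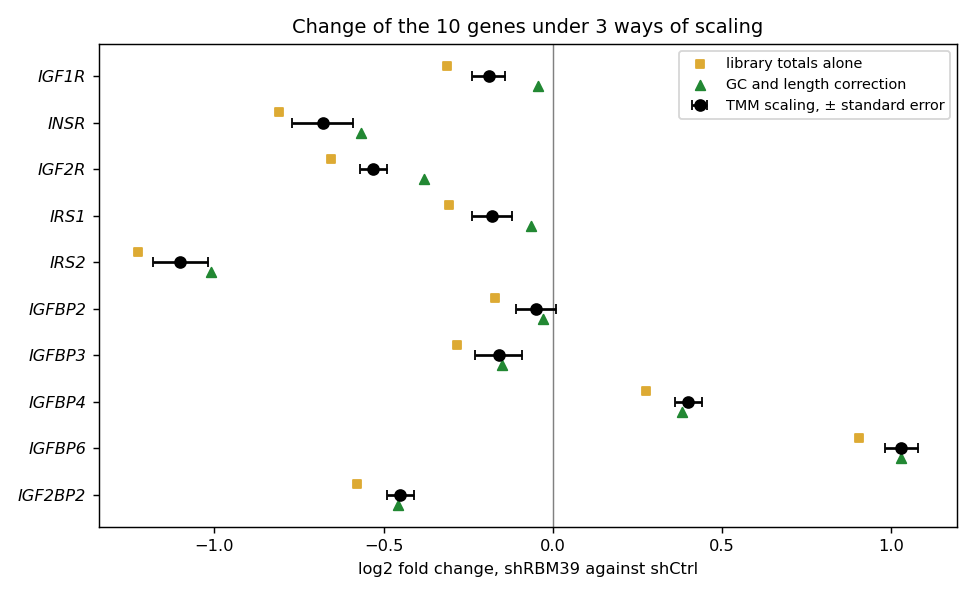
Points give the log2 fold change of shRBM39 against shCtrl (x axis) for each gene (y axis) under TMM scaling (circles, bars ± SE), library totals alone (squares) and the GC and length correction (triangles). Library totals move every gene to the left, and under the correction IGFBP2, IGF1R and IRS1 lie closest to 0.

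Compared per length of exon, IGFBP4, IGFBP6 and IGF2BP2 mRNAs were the most abundant of the set and INSR mRNA the least. In shCtrl the order by RPKM (mean ± SD, n = 3) was IGFBP4 at 47.2 ± 0.784, IGF2BP2 at 39.5 ± 1.13, IGFBP6 at 34.1 ± 2.00, IGF2R at 11.6 ± 0.434 and IGFBP2 at 7.16 ± 0.120. Below these came IGFBP3 at 5.03 ± 0.42, IGF1R at 3.56 ± 0.185, IRS1 at 3.35 ± 0.149, IRS2 at 2.95 ± 0.190 and INSR at 1.22 ± 0.0743. IGF1R and IRS1 overlapped over the libraries, and no other neighbours did. The median RPKM of tested genes in shCtrl was 3.44, so IRS1, IRS2 and INSR lay below it.

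In shRBM39 the order changed at the top. IGFBP6 led at 63.9 ± 2.53 RPKM, ahead of IGFBP4 at 57.1 ± 2.10 and IGF2BP2 at 26.5 ± 0.068. IGF2R was at 7.38 ± 0.298, IGFBP2 at 6.35 ± 0.591, IGFBP3 at 4.13 ± 0.114, IGF1R at 2.86 ± 0.164 and IRS1 at 2.70 ± 0.112. IRS2 at 1.26 ± 0.0455 and INSR at 0.699 ± 0.0702 were again last, and IGF1R and IRS1 were again the only neighbours that overlapped. The ranks of all 10 genes were the same with TMM-scaled RPKM in both groups. This is no check of the order, since TMM multiplies all genes of a library by the same factor.

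**Figure D3:**
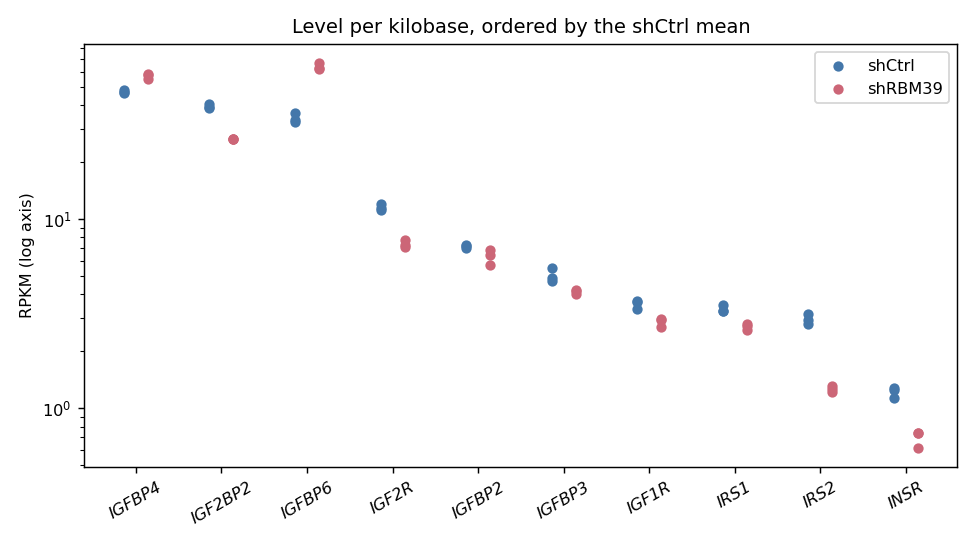
The RPKM of each gene in each library is plotted on a log axis, with genes ordered by their shCtrl mean from IGFBP4 at 47.2 to INSR at 1.22 RPKM. IGFBP6 is above IGFBP4 in shRBM39 and below it in shCtrl.

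Within the binding proteins, the mRNA mix shifted toward IGFBP6. The summed RPKM of the 4 binding proteins was 93.4, 92.5 and 94.8 in shCtrl and 129, 134 and 131 in shRBM39. IGFBP6 made up 36.5% ± 1.76 of that sum in shCtrl and 48.6% ± 1.37 in shRBM39 (SD, n = 3). The share of IGFBP4 went from 50.5% ± 1.29 to 43.5% ± 1.12 although its level was higher. IGFBP2 went from 7.66% ± 0.223 to 4.83% ± 0.521 and IGFBP3 from 5.37% ± 0.448 to 3.14% ± 0.107. The shares are parts of the same sum, so a larger IGFBP6 part lowers the others. The IGFBP2 mRNA itself was not called (log2 fold change -0.05), and IGFBP3 at -0.16 was just past the threshold. None of these 4 shares overlapped between the groups.

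Within the receptors, IGF2R was the main mRNA in both groups. The summed RPKM of the 3 receptors was 15.8, 17.0 and 16.3 in shCtrl and 10.9, 11.4 and 10.6 in shRBM39. IGF2R held 70.8% ± 0.334 of it in shCtrl and 67.4% ± 0.394 in shRBM39, and IGF1R held 21.7% ± 0.747 and 26.2% ± 1.04 (SD, n = 3), with no overlap for either. The level of IGF1R itself was lower, at 3.56 RPKM in shCtrl and 2.86 RPKM in shRBM39. The share of INSR was 8.07%, 7.36% and 6.97% in shCtrl and 5.69%, 6.47% and 7.03% in shRBM39, which overlapped.

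**Figure D4:**
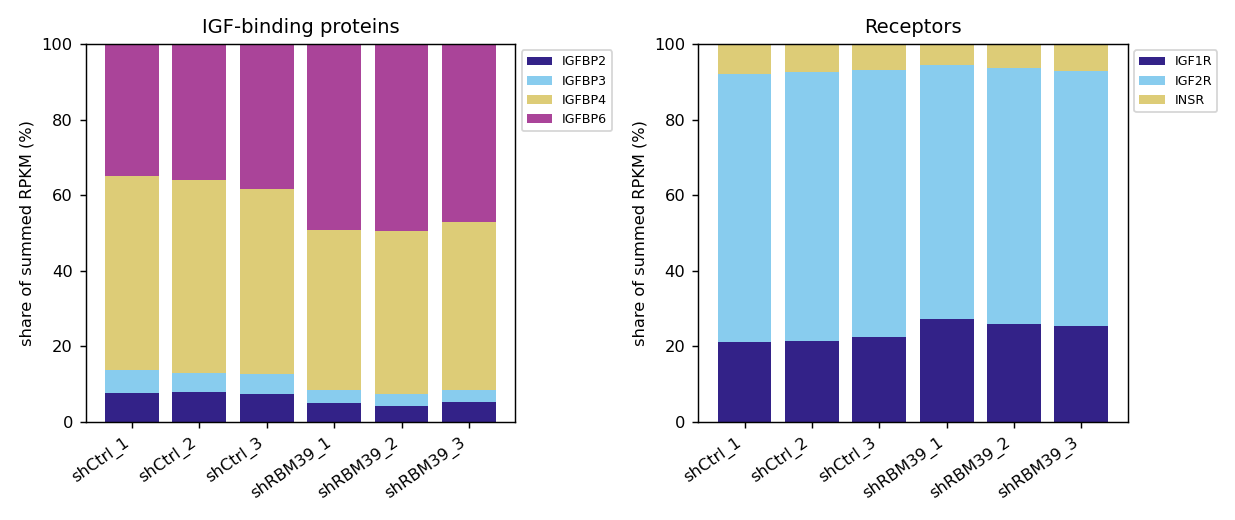
Stacked bars give the percent of the summed RPKM held by each binding protein (left) and each receptor (right) in each of the 6 libraries. The IGFBP6 part grows from 36.5% to 48.6% on average, and the IGF1R part from 21.7% to 26.2% although IGF1R mRNA was lower in shRBM39.

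Of the 3 ligands, IGF2 alone reached a level that could be tested. INS had 0 counts in all libraries and IGF1 had 1 to 5 counts. IGF2, a growth factor that binds IGF1R, INSR-A and IGF2R, was at 294, 258 and 285 CPM in shCtrl and at 1204, 1215 and 1142 CPM in shRBM39. It was higher in all shRBM39 libraries, with a log2 fold change of 2.09 ± 0.04 SE (edgeR adjusted p = 7.44e-29). Its exons share 998 bases with the readthrough gene INS-IGF2, which had 101 to 415 counts, so the division of reads between both symbols is uncertain.

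Of 17 other IGF axis genes, 10 were tested, 4 were called higher and 3 lower, with a median log2 fold change of 0.08. The called genes are 70% of those tested, against 59.1% of all genes. IRS4, a further docking protein, had 0 counts in all libraries. IGF2BP1, a paralog of IGF2BP2, rose from 72.3 to 110 CPM (log2 fold change 0.61 ± 0.04 SE, edgeR adjusted p = 2.86e-14), the opposite direction to IGF2BP2. IGFBP1 fell from 2.63 to 1.10 CPM (log2 fold change -1.25 ± 0.22 SE, edgeR adjusted p = 9.14e-06). The other lower genes, singled out after their values were seen, were the paralog IGF2BP3 at -0.51 ± 0.06 SE (edgeR adjusted p = 2.73e-09) and FURIN, the protease that cleaves the INSR and IGF1R precursors, at -0.85 ± 0.07 SE (edgeR adjusted p = 4.74e-13).

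Of 15 receptor adaptors and phosphatases, 4 were called higher and 6 lower, 66.7% of the list against 59.1% of all genes. The median log2 fold change was 0.03. GRB10, an adaptor that inhibits the insulin and IGF1 receptors, was at 14.7, 14.04 and 10.4 CPM in shCtrl and at 4.29, 5.40 and 3.98 CPM in shRBM39 (log2 fold change -1.53 ± 0.12 SE, edgeR adjusted p = 8.85e-13). Its paralog GRB14 rose from 0.845 to 1.60 CPM (log2 fold change 0.92 ± 0.25 SE, edgeR adjusted p = 0.0018).

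Of 20 PI3K and AKT genes, 4 were called higher and 6 lower, 50% of the list against 59.1% of all genes, with a median of -0.05. AKT1, a kinase downstream of PI3K, rose from 73.8 to 99.2 CPM (log2 fold change 0.43 ± 0.04 SE, edgeR adjusted p = 1.22e-10). FOXO3, a transcription factor that AKT keeps out of the nucleus, fell from 40.4 to 27.8 CPM (log2 fold change -0.54 ± 0.05 SE, edgeR adjusted p = 1.96e-10).

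Of 13 mTOR complex genes, 6 were called higher and 4 lower, 76.9% of the list against 59.1% of all genes. The median was 0.02. MTOR, the kinase itself, rose from 75.8 to 104 CPM (log2 fold change 0.45 ± 0.04 SE, edgeR adjusted p = 3.86e-11). DEPTOR, an inhibitory subunit of both mTOR complexes, fell from 7.64 to 2.73 CPM (log2 fold change -1.48 ± 0.13 SE, edgeR adjusted p = 6.71e-12).

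The direction counts of these lists moved with the scaling. With library totals alone, 3 PI3K and AKT genes were higher and 11 lower, and with the GC and length correction 7 were higher and 6 lower. For the mTOR list the same settings gave 3 higher and 6 lower, and 7 higher and 4 lower. For the adaptors they gave 3 higher and 8 lower, and 5 higher and 3 lower. For the other IGF axis genes they gave 2 higher and 4 lower, and 5 higher and 3 lower.

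**Figure D5:**
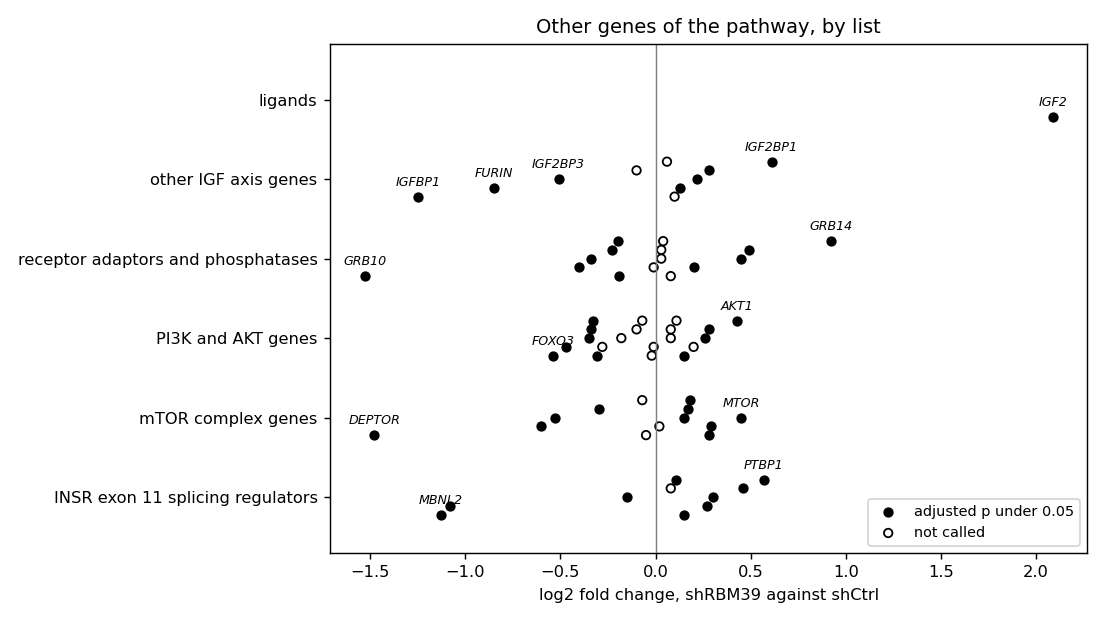
Each point is the log2 fold change (x axis, shRBM39 against shCtrl) of 1 tested gene of a list (y axis), filled where the edgeR adjusted p was under 0.05, and offset vertically to keep points apart. IGF2 stands far to the right at 2.09, and GRB10 and DEPTOR lie farthest to the left.

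No splicing record was listed for any of the 10 members, by symbol or by position. The deposited splicing table holds 1582 records from 1198 genes, all with p at most 0.0499 and an inclusion difference of at least 0.1, so INSR exon 11 had no record that met these limits, and its usage was not analysed here. Of 10 genes listed as regulators of INSR exon 11, such as MBNL, CELF and SRSF proteins, 6 were called higher and 3 lower in mRNA. These are 90% of the list, against 59.1% of all genes. With library totals alone 4 were called higher and 3 lower, and with the GC and length correction 7 higher and 3 lower. MBNL2, of a family that promotes inclusion of the exon, fell from 24.5 to 11.2 CPM (log2 fold change -1.13 ± 0.07 SE, edgeR adjusted p = 3.32e-15). PTBP1, a repressor of many exons, rose from 154 to 228 CPM (log2 fold change 0.57 ± 0.04 SE, edgeR adjusted p = 3.12e-15). Also called higher were SRSF1, SRSF3, HNRNPF and RBFOX2, at log2 fold changes of 0.30, 0.46, 0.27 and 0.11. HNRNPA1 was called lower at -0.15, and CELF1 at 0.08 was not called. What these changes mean for the exon was not tested.

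Among the 78 genes of the other pathway lists, 8 had 1 record each, among them AKT2, CELF1, GGA1, RICTOR, SH2B1, SOS2 and TSC2. The table names its groups only as group 1 and group 2 and gives no key, so no direction with RBM39 can be read from it. The records were selected for their difference, and their values are given as a description. For 3 of them, AKT2, CELF1 and SH2B1, every library had at least 20 reads.

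SH2B1, an adaptor that binds the activated insulin receptor, had an alternative 5′ splice site. The stretch between the sites, chr16:28872706-28872758 on the plus strand of GRCh38, is 53 bases long. It is shown in capitals with 15 bases on each side in lower case, since it is the segment that differs between the forms.
SH2B1 stretch: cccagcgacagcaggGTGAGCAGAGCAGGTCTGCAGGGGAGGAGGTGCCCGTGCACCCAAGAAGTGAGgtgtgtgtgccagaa
The capitals open with the GT that starts the intron of the short form, and the lower case after them opens with the gt that starts the intron of the long form. The long form was used at a level of 0.378, 0.27 and 0.312 in the libraries of group 1 and at 0.099, 0.141 and 0.104 in those of group 2, which do not overlap. The means differed by 0.205, from at least 57 reads per library. A stretch of 53 bases is not a multiple of 3, so the forms differ in reading frame downstream. In GENCODE v44, 3 coding transcripts end the exon at the long site and 7 at the short site.

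AKT2, the AKT isoform tied to insulin action, had a skipped exon of 130 bases at chr19:40265222-40265351 on the minus strand. Its inclusion level was 0.716, 0.687 and 0.591 in the libraries of group 1 and 0.776, 0.727 and 0.8 in those of group 2. The groups did not overlap and the means differed by -0.103, from at least 87 reads per library. For CELF1, an RNA-binding protein, the levels were 0.902, 0.906 and 0.723 against 1, 1 and 0.898, a difference of -0.122 with overlap. The library with the fewest reads had 1 to 9 for RICTOR, SOS2 and TSC2 and 19 for GGA1, so their levels are imprecise.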

How the data were processed

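Libraries were made with a stranded mRNA kit from SW480 cells, 3 shCtrl and 3 shRBM39, and grouped by their titles. Columns named NC were read as shCtrl. Per the labels, the authors' processing notes name Trimmomatic 0.36, STAR 2.5.3a, featureCounts, Subread 1.5.1, edgeR 3.12.1 and GRCh38. The deposited tables give raw counts and RPKM by gene symbol. The RPKM values were recomputed from the counts with a largest relative difference of 1.21e-13. The study names a method with unique identifiers (UID). Whether reads were collapsed by them, the strand setting of the counting and the treatment of multi-mapped reads are not given in the sources used here. The authors also deposited rMATS splicing records with inclusion and skipping read counts and inclusion levels, a fraction from 0 to 1. Their p-values and group differences were read only to find the limits of that table.

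The test was the quasi-likelihood F test of edgeR 4.0.16 under R 4.3.3, after filterByExpr and TMM, with a term for group alone, with p-values adjusted by Benjamini-Hochberg over 18243 genes at 0.05. CPM carries the TMM factors, and RPKM uses library totals. The SE was taken from the log2 fold change and its F statistic. Alternatives were DESeq2 1.42.0, limma 3.58.1 on log2(RPKM + 1) and log2(RPKM + 0.1), other scalings, filters and thresholds, a GC and length correction, the replicate number in the model and each library left out. The fits were tested on simulated data. All 10 genes were named, and of each other list the highest and lowest called gene and those at 0 counts. Of the marker lists others that check the label were also named, and of the INSR exon 11 regulators all 10 were named. The splicing record of 1 list gene is not reported here. The genes and lists were chosen with earlier results of these data known. The replicates are described as separate experiments, but whether they came from 1 line or from separate clones is not stated, so p-values measure only the spread between these libraries.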

Additional observations from a re-analysis of the deposited data

How the results depend on the processing

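INSR, IGF2R, IRS2, IGFBP4, IGFBP6 and IGF2BP2 kept their direction and call in every alternative run, except where the fit tested for a log2 fold change beyond 0.5. That test called 2232 genes, among them IRS2 and IGFBP6, 2 of the 10 members. It called 3 other IGF axis genes, 1 adaptor, 2 mTOR complex genes and 2 splicing regulators. In edgeR it called 0 PI3K and AKT genes, 0 at an unadjusted p under 0.05, where the test against no change called 10. Not called were IGF1R at -0.19, IGF2R at -0.53, INSR at -0.68, IRS1 at -0.18, IGFBP3 at -0.16, IGFBP4 at 0.40 and IGF2BP2 at -0.45. IGFBP3 was also not called under DESeq2 (-0.15), without a filter on low counts (-0.15), with the GC and length correction (-0.15) or at an adjusted p under 0.01 (-0.16), and it ranged from -0.21 to -0.076 with each library left out. IGF1R was at -0.043 and IRS1 at -0.064 with the GC and length correction, not called. IGFBP2 was called with library totals alone (-0.17) and ranged from -0.10 to 0.024 with each library left out, reversed to 0.024 without shRBM39 replicate 2. The causes were not tested.

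Libraries with the same replicate number did not deviate together (correlations 0.00615, -0.0459 and 0.0366), so the counts showed no shift shared by number. Whether libraries of the same number were handled together is not stated. With the replicate block 10810 genes were called against 10790, and each member kept its call, IGFBP3 with an edgeR adjusted p of 0.0426. The GC and length correction with the replicate block gave IGF1R -0.042, IRS1 -0.064 and IGFBP3 -0.15, not called. With the replicate block the IRS2 to IRS1 difference was -0.92.

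With TMM-scaled RPKM the levels were 11.1 (shCtrl) and 7.70 (shRBM39) for IGF2R, 45.2 and 59.7 for IGFBP4, and 37.9 and 27.7 for IGF2BP2. In shRBM39 they were 2.82 for IRS1, 1.32 for IRS2, 4.31 for IGFBP3 and 66.7 for IGFBP6, and in shCtrl 6.86 for IGFBP2. Depth limits INSR, with 132 to 264 counts per library, and the splicing records of the pathway genes.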
